A study of Homo sapiens with 12 samples.

Results

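The 32 genes described here are zinc finger genes of human chromosome 19q13.12 to 19q13.2, chosen as a list of gene symbols by their position in that cluster, whether or not they changed. The list was set with earlier results of these data known. It does not hold every zinc finger gene of this span, since ZNF546 lies within it and is not among the 32. All 32 were found among the 26364 genes of the deposited count tables, and RefSeq places all 32 on chromosome 19. From ZNF565 to ZNF573 stand 30 of them with 5 genes of the files that carry no zinc finger symbol between them, and ZNF780A and ZNF780B lie apart, beyond 67 such genes. The cells were RKO, a long-established line from a human colon carcinoma, and mRNA was sequenced in 12 libraries of 6 groups with 2 libraries each. The first 2 groups were derivatives that overexpressed the alpha form of PRDM1 (alpha) or its beta form (beta), and derivatives overexpressing GFP (GFP) were their control. The next 2 were CRISPR/Cas9 knockout derivatives of PRDM1 (KO2 and KO5), set against RKO cells wild type for PRDM1 (WT). The alpha, beta and GFP derivatives carry no stated deletion, and all 6 groups were grown in the same medium. The labels give neither the promoter that drove the overexpressed genes nor whether a derivative grew from a single clone. Nor do they tie the 2 libraries of a group to separate cultures, so the p-values reflect the spread between libraries alone, which may be technical.

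Zinc finger genes of this kind encode proteins in which a row of C2H2 zinc fingers reads DNA and, in most of them, a KRAB domain recruits the corepressor TRIM28. TRIM28 in turn brings in the histone methyltransferase SETDB1, and many such proteins silence transposable elements. The genes arose by repeated tandem duplication, so that they stand in long clusters, chromosome 19 holding most of them. PRDM1, also called Blimp-1, is a zinc finger repressor known for the differentiation of plasma cells, and its beta form lacks the start of the alpha protein. Among the genes described here, ZNF146 encodes a protein of zinc fingers with no KRAB domain. Which of the other proteins hold a KRAB domain was not checked here.

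RefSeq promoter sequences of build GRCh38.p14 were available for 29 of the 32 genes (HKR1 under its RefSeq symbol ZNF875). The sequences shown are the 250 bases before the start of 5 genes, 5′ to 3′ on the gene's own strand. ZFP82 (chr19:36418645-36418894, minus strand), ZNF569 (chr19:37467445-37467694, minus strand) and ZNF345 (chr19:36850626-36850875, plus strand) are shown because they fell far in both knockouts. ZNF780B (chr19:40056232-40056481, minus strand) is shown for the largest rise with alpha, and ZNF146 (chr19:36214856-36215105, plus strand) because it changed little in every comparison. Capitals mark GAAAG, the core letters of the site PRDM1 is known to bind, or CTTTC, the same letters on the other strand.
ZFP82: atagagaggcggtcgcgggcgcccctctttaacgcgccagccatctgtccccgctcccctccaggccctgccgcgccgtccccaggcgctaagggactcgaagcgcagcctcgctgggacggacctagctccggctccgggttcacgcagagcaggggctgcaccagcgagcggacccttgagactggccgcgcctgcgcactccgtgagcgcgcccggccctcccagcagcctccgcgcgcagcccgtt
ZNF569: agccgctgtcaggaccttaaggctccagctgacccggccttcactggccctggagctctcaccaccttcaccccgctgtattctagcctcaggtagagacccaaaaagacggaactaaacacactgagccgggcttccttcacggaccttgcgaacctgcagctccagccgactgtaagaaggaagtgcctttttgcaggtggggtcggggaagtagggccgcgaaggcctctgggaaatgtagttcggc
ZNF345: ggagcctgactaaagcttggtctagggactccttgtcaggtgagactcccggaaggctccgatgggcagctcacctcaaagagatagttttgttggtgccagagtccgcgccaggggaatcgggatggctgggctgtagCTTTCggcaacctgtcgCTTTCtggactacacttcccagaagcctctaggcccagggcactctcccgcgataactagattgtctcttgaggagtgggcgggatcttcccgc
ZNF780B: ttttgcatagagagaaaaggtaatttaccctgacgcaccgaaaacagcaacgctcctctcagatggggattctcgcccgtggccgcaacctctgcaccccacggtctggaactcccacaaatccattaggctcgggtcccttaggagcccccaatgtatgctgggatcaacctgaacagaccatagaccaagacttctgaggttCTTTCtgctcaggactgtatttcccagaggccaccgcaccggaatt
ZNF146: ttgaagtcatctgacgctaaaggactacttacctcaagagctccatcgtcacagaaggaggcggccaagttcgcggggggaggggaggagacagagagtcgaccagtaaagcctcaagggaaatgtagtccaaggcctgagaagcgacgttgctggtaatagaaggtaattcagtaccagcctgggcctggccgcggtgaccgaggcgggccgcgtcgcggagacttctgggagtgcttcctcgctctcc

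The letters GAAAG or CTTTC stood at 2 places in the ZNF345 sequence and at 1 in that of ZNF780B, and at none in the other 3. Over the whole promoter windows, from 250 bases before to 50 bases after the start, 10 of 29 genes of the cluster (34.5%) held GAAAG on either strand, against 14977 of 27305 promoters of all genes (54.9%). Among the other zinc finger genes of chromosome 19, 108 of 205 promoters (52.7%) held it. The longer letters TGAAAG, on either strand and by construction within a GAAAG match, stood in 1 of 29 promoters of the cluster (3.45%), against 4378 of 27305 (16.0%). The median GC content was 60.3% in the cluster and 58.3% over all promoters, and the median number of CG dinucleotides was 20 in the cluster and 14 over all promoters. Where starts lie close together on opposite strands, the windows overlap and the same letters can count for both genes. This was so for ZNF790 with ZNF345 and for ZNF829 with ZNF568, so the 29 windows are not all separate. These are descriptions of letters in these windows and carry no test.

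The libraries held 19058967 to 55961821 gene counts, and levels are given as CPM, a gene's count scaled to a fixed total of gene counts. With a floor of 3 counts, a gene at 0 could still have up to 0.157 CPM in the smallest library. PRDM1 had 11475 and 9681 counts in the alpha libraries and 22395 and 28423 in the beta libraries, against 2 and 6 in the GFP libraries. It had 0 and 1 counts in KO2 and 1 and 1 in KO5, against 4 and 4 in WT. The KO2 to WT ratio of 0.145 had an exact 95% interval of 0.00327 to 1.08, and the KO5 to WT ratio of 0.394 one of 0.0408 to 1.98, so a lower PRDM1 mRNA in the knockouts was not detectable at this depth. Of the colon epithelium markers looked up, KRT8, KRT18 and CDX2 were present, EPCAM and CDX1 were at 0 counts in all 12 libraries, and CDH1, KRT19, KRT20 and VIL1 had at most 2 counts in any library. Counting intervals cover counting error only.

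The RNA of the cluster as a whole was highest with PRDM1 alpha and lowest in the knockouts. The counts of the 32 genes together made up 2873 and 2850 CPM in the alpha libraries and 2115 and 2126 CPM in the beta libraries, against 1554 and 1570 CPM in the GFP libraries. They made up 690.2 and 692 CPM in KO2 and 819.8 and 836 CPM in KO5, against 1443 and 1455 CPM in WT. No 2 groups overlapped in this sum. The alpha sum was 1.83 times and the beta sum 1.36 times the GFP sum, while KO2 held 47.7% and KO5 57.1% of the WT sum. ZNF146 took up a large part of these counts, 31.1% and 31.5% in KO2, 30.1% and 28.8% in KO5, and 16.6% and 16.0% in WT. Without it, the alpha sum was 1.98 times and the beta sum 1.40 times the GFP sum, and KO2 held 39.2% and KO5 48.2% of the WT sum. In bulk RNA, fewer cells that express a gene and less of its RNA per cell cannot be told apart.

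**Figure D1:**
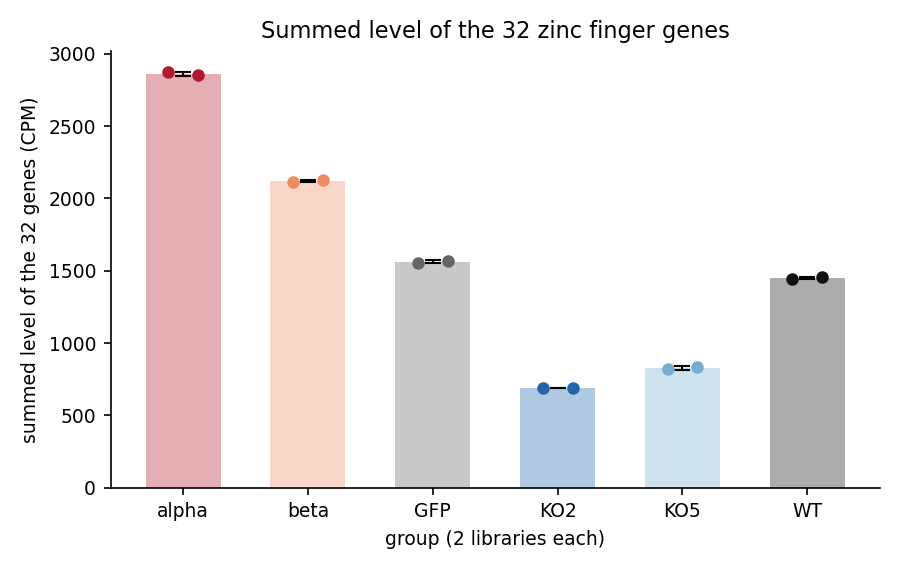
Summed level of the 32 zinc finger genes in each library, in CPM, for the 6 groups; bars are means of 2 libraries, error bars the SD, points the libraries. The alpha libraries stand at 2873 and 2850 CPM, against 1554 and 1570 CPM with GFP, and the KO2 libraries at 690.2 and 692 CPM, against 1443 and 1455 CPM in WT.

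The comparison of the knockout derivatives with wild type asked which genes of the cluster differ where PRDM1 was targeted. In KO2 30 of the 32 genes fell, 27 of them by at least 1.5-fold, and none rose. In KO5 26 fell, 23 of them by at least 1.5-fold, and 1 rose, ZNF146, by a log2 fold change of 0.08 ± 0.03. Here and below, ± after a log2 fold change is its standard error in the fit, and ± after a mean is the SD. A gene was called where edgeR's quasi-likelihood test gave a Benjamini-Hochberg adjusted p under 0.05 over all 12858 genes tested. Over all these genes 14.9% fell in KO2 and 2.89% fell by at least 1.5-fold, and 25.9% fell in KO5 and 4.09% by at least 1.5-fold, while 15.1% rose in KO2 and 25.2% in KO5. The median log2 fold change of the 32 genes was -1.21 in KO2 and -0.93 in KO5, where the median over all genes tested was -0.0014 in KO2 and -0.0043 in KO5. Each knockout is 1 derivative line, so the loss of PRDM1 and other differences of that line from wild type cannot be told apart.

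ZFP82, a zinc finger gene near the start of the cluster, came close to the counting floor in both knockouts. It had 0.114 and 0.112 CPM in KO2 and 0.0999 and 0.0350 CPM in KO5, against 5.40 and 5.43 CPM in WT. The log2 fold change was -5.50 ± 0.49 in KO2. In KO5 it rested on 4 reads in both libraries together, against 501 in WT, a WT to KO5 ratio of 79.4 with an exact 95% interval of 30.8 to 293.

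ZNF569, reported as a repressor in reporter assays of MAPK signalling, fell nearly as far. Its libraries had 1.86 and 2.19 CPM in KO2 and 2.33 and 2.27 CPM in KO5, against 56.4 and 55.2 CPM in WT. This was 27.0-fold lower in KO2 (log2 fold change -4.75 ± 0.12) and 23.7-fold lower in KO5 (-4.57 ± 0.13). All 4 knockout libraries lay far below both WT libraries.

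ZNF570, whose gene model overlaps that of ZNF569, was expressed near the floor. It had 0.0227 and 0.0281 CPM in KO2 and 0.133 and 0.245 CPM in KO5, against 0.493 and 0.465 CPM in WT. In KO2 these were 2 reads against 44 in WT, a WT to KO2 ratio of 18.9 with an exact 95% interval of 4.94 to 161. In KO5 the log2 fold change was -1.30 ± 0.51. That call was lost without either WT library (-1.26 and -1.35), without KO5 library 1 (-0.93) and by DESeq2's Wald test (-1.31, adjusted p 0.112).

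ZNF540, ZNF571, ZNF345 and ZNF568 followed, again with no overlap between knockout and WT libraries. ZNF540 had 4.46 and 4.16 CPM in KO2 and 8.49 and 8.50 CPM in KO5, against 39.6 and 39.3 CPM in WT (log2 fold changes -3.15 ± 0.09 in KO2 and -2.18 ± 0.08 in KO5). ZNF571, whose model overlaps ZNF540, had 9.32 and 8.43 CPM in KO2 and 11.5 and 11.5 CPM in KO5, against 57.7 and 58.7 CPM in WT (-2.67 ± 0.07 in KO2 and -2.32 ± 0.07 in KO5). For both genes the knockout libraries lay far below WT, and KO2 lay below KO5. ZNF345 had 3.23 and 3.57 CPM in KO2 and 4.73 and 3.81 CPM in KO5, against 23.8 and 23.3 CPM in WT (-2.76 ± 0.10 in KO2 and -2.43 ± 0.10 in KO5). ZNF568, the human counterpart of mouse Zfp568, which silences a placental Igf2 transcript in mice, had 0.478 and 0.337 CPM in KO2 and 0.266 and 0.700 CPM in KO5, against 2.47 and 2.36 CPM in WT (-2.49 ± 0.29 in KO2 and -2.29 ± 0.31 in KO5). The edgeR adjusted p of these 4 genes was 2.39e-11 or less in KO2 and 5.68e-10 or less in KO5.

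ZNF420, also called APAK and known as a negative regulator of p53, fell as well. It had 14.2 and 14.6 CPM in KO2 and 21.2 and 20.9 CPM in KO5, against 55.0 and 52.6 CPM in WT (-1.86 ± 0.06 in KO2 and -1.32 ± 0.06 in KO5). ZNF461, the human counterpart of a rat ovarian repressor induced by gonadotropin, had 3.96 and 4.04 CPM in KO2 and 2.30 and 3.18 CPM in KO5, against 7.29 and 8.52 CPM in WT (-0.96 ± 0.11 in KO2 and -1.52 ± 0.14 in KO5). Unlike ZNF540 and ZNF571, ZNF461 was lower in KO5 than in KO2 (-0.56 ± 0.15), a call lost without KO5 library 1 (-0.34, edgeR adjusted p 0.11). The edgeR adjusted p of ZFP82, ZNF569, ZNF420 and ZNF461 was 6.19e-10 or less in KO2 and 5.42e-14 or less in KO5.

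ZNF829 was the least expressed of the 32 and passed the low-count filter only through libraries of the alpha and beta groups. It had 2 and 1 reads in KO2 and 1 and 0 in KO5, against 9 and 11 in WT. The WT to KO2 ratio of CPM was 5.74 with an exact 95% interval of 1.70 to 30.1, and the WT to KO5 ratio was 12.7 with an interval of 2.03 to 525. Its KO2 call was lost without either KO2 library (log2 fold changes -2.74 and -2.12). Its KO5 call was lost without KO5 library 2 (-2.53) and by DESeq2's Wald test (-3.65, adjusted p 0.0536). ZNF781, a transcribed pseudogene in RefSeq, had 0.136 and 0.112 CPM in KO2 and 0.433 and 0.280 CPM in KO5, against 0.438 and 0.715 CPM in WT. It passed in KO2 (log2 fold change -2.19 ± 0.51) but not in KO5 (-0.72 ± 0.38).

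**Figure D2:**
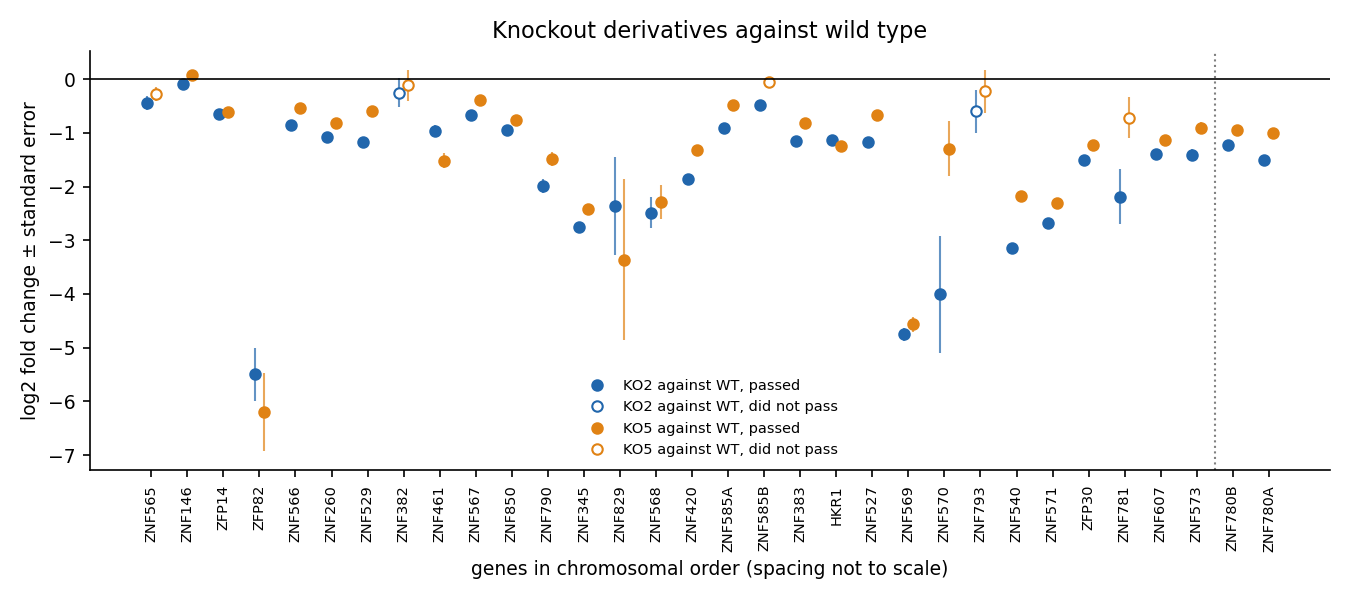
Log2 fold change against wild type of the 32 genes in chromosomal order for KO2 (blue) and KO5 (orange), with standard errors; filled points passed, open points did not, and the dotted line marks the distant pair ZNF780B and ZNF780A. Nearly all points lie below 0, with the lowest at ZFP82 (-5.50 in KO2 and -6.20 in KO5) and ZNF569 (-4.75 and -4.57).

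The other genes that fell in KO2 did so by at most 1.99 on the log2 scale. ZNF790 had log2 fold changes of -1.99 ± 0.13 in KO2 and -1.49 ± 0.13 in KO5, and ZFP30, whose mouse counterpart affects neutrophil chemokine levels in the airway, -1.5 ± 0.04 in KO2 and -1.22 ± 0.04 in KO5. ZNF607, ZNF573, ZNF780A, ZNF780B, ZNF527, ZNF383, HKR1, ZNF529 and ZNF260 fell by 1.07 to 1.51 on the log2 scale in KO2. ZNF850, ZNF585A, ZNF566, ZNF567 and ZFP14 fell by 0.64 to 0.94 in KO2, and ZNF585B and ZNF565 by 0.47 and 0.45. The call of ZNF565 was lost without WT library 2 (-0.29), without KO2 library 2 (-0.39) and by DESeq2's Wald test (-0.44, adjusted p 0.0642). The 2 genes that did not pass in KO2 were ZNF382, a reported repressor of AP-1 and NF-kB signalling, and ZNF793, both expressed under 1 CPM in all KO2 and WT libraries. In KO5 the 5 that did not pass were these and ZNF585B, ZNF781 and ZNF565.

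KO5 and KO2 differed in how far the cluster fell. The log2 fold change of KO5 against KO2 was above 0 and passed for 22 of the 32 genes and was below 0 for 2, HKR1 and ZNF461, where 26.9% of all genes tested were higher and 28.1% lower in KO5. The median of the 32 genes was 0.30, and that over all genes tested -0.0058. Only ZNF570, ZNF781 and ZNF540 were higher by at least 1.5-fold, as 4.88% of all genes were. ZNF540 was 0.97 ± 0.11 higher in KO5 on the log2 scale. ZNF781 was 1.47 ± 0.57 higher. Its call was lost without either KO2 library or KO5 library 1 (1.12 to 1.63) and by DESeq2's Wald test (1.51, adjusted p 0.051). For ZNF570, 11 reads in KO5 stood against 2 in KO2, a KO5 to KO2 ratio of 7.47 with an exact 95% interval of 1.63 to 69.3. That call was lost without KO2 library 1 (edgeR adjusted p 0.0707) or KO5 library 2 (0.127). The call of HKR1, at a log2 fold change of -0.11 ± 0.05, was lost in 9 alternative settings. With the trend of fold change with GC content removed, the median of the 32 genes was 0.23, and 19 were higher in KO5. Zinc finger genes outside the list leaned the same way. Of 181 others tested on chromosome 19, 80 were higher and 16 lower in KO5 than in KO2. Of 266 on other chromosomes, 99 were higher and 47 lower.

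Overexpression of PRDM1 went with higher RNA of most of these genes. With alpha 27 of the 32 genes rose against GFP, 23 of them by at least 1.5-fold, and none fell. With beta 23 rose, 13 of them by at least 1.5-fold, and 2 fell, ZNF569 and ZNF793. Of all genes tested 21.2% rose with alpha and 3.42% by at least 1.5-fold, and 22.9% rose with beta and 3.24% by at least 1.5-fold, while 16.3% fell with alpha and 18.0% with beta. The median log2 fold change of the 32 genes was 0.95 with alpha and 0.45 with beta, and over all genes tested 0.010 with alpha and 0.012 with beta. Alpha and beta share the GFP libraries as control. The beta rises of ZNF565 (0.44 ± 0.14) and ZNF585B (0.21 ± 0.07) were each lost in 3 alternative settings.

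ZNF780B, which lies apart from the main cluster beside its near copy ZNF780A, had the largest rise. Its libraries had 229 and 213 CPM with alpha and 132 and 131 CPM with beta, against 68.5 and 60.8 CPM with GFP. This was 3.45-fold higher with alpha (log2 fold change 1.79 ± 0.06) and 2.04-fold higher with beta (1.03 ± 0.07). ZNF780A had 131 and 125 CPM with alpha and 76.5 and 84.5 CPM with beta, against 69.9 and 63.0 CPM with GFP (0.96 ± 0.05 with alpha and 0.29 ± 0.05 with beta). How reads that fit both copies were counted is not given in the sources used here, so the split between the pair is uncertain.

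ZNF568 and ZNF461, which fell in both knockouts, rose with both forms. ZNF568 had 6.54 and 7.09 CPM with alpha and 4.09 and 3.39 CPM with beta, against 2.48 and 2.00 CPM with GFP (log2 fold changes 1.61 ± 0.18 with alpha and 0.74 ± 0.20 with beta). ZNF461 had 20 and 20 CPM with alpha and 13.0 and 12.8 CPM with beta, against 6.57 and 7.56 CPM with GFP (1.5 ± 0.10 with alpha and 0.87 ± 0.11 with beta). For both genes the groups did not overlap and beta stood between alpha and GFP. The beta call of ZNF568 was lost without GFP library 2 (0.58, edgeR adjusted p 0.0513).

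The same order held for ZNF420, ZNF345, ZNF383 and ZNF573. ZNF420 had 164 and 166 CPM with alpha and 95.9 and 95.6 CPM with beta, against 59.2 and 60.6 CPM with GFP (1.47 ± 0.04 with alpha and 0.68 ± 0.05 with beta). ZNF345 had 57.1 and 58.0 CPM with alpha and 35.8 and 37.6 CPM with beta, against 22.5 and 23.1 CPM with GFP (1.34 ± 0.06 with alpha and 0.70 ± 0.07 with beta). ZNF383 had 42.6 and 43.4 CPM with alpha and 29.2 and 28.4 CPM with beta, against 18.6 and 17.8 CPM with GFP (1.25 ± 0.07 with alpha and 0.67 ± 0.07 with beta). In ZNF573 the alpha libraries also lay highest. It had 22.8 and 25.1 CPM with alpha and 15.5 and 13.6 CPM with beta, against 11.5 and 9.63 CPM with GFP (1.19 ± 0.10 with alpha and 0.46 ± 0.10 with beta).

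In ZNF260, ZNF566, ZFP14 and ZFP82, near the start of the cluster, rises with beta came nearer to those with alpha than in the genes above. ZNF260, whose rat counterpart cooperates with GATA4 in heart muscle cells, had 350.4 and 349 CPM with alpha and 307 and 302 CPM with beta, against 160.3 and 169 CPM with GFP (1.09 ± 0.04 with alpha and 0.89 ± 0.04 with beta). ZNF566 had 140.2 and 142 CPM with alpha and 118 and 125 CPM with beta, against 68.9 and 68.2 CPM with GFP (1.05 ± 0.04 with alpha and 0.83 ± 0.04 with beta). ZFP14 had 45.7 and 44.6 CPM with alpha and 40.2 and 41.4 CPM with beta, against 25.1 and 25.1 CPM with GFP (0.85 ± 0.06 with alpha and 0.71 ± 0.06 with beta). ZFP82, the gene that fell furthest in the knockouts, was among them. It had 10.3 and 10.9 CPM with alpha and 8.34 and 7.57 CPM with beta, against 5.12 and 5.05 CPM with GFP (1.06 ± 0.12 with alpha and 0.65 ± 0.13 with beta). From ZNF780B to ZFP82, the 12 genes described here for their rises had an edgeR adjusted p of 2.24e-10 or less with alpha and 0.00201 or less with beta. Nearness of the forms was not particular to the start of the cluster. The log2 difference of alpha from beta was 0.42 for ZFP82, and 0.63 for ZNF461 and ZNF565 of the same part. Further along it was 0.41 for ZNF790 and ZNF607 and 0.35 for ZNF585B.

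**Figure D3:**
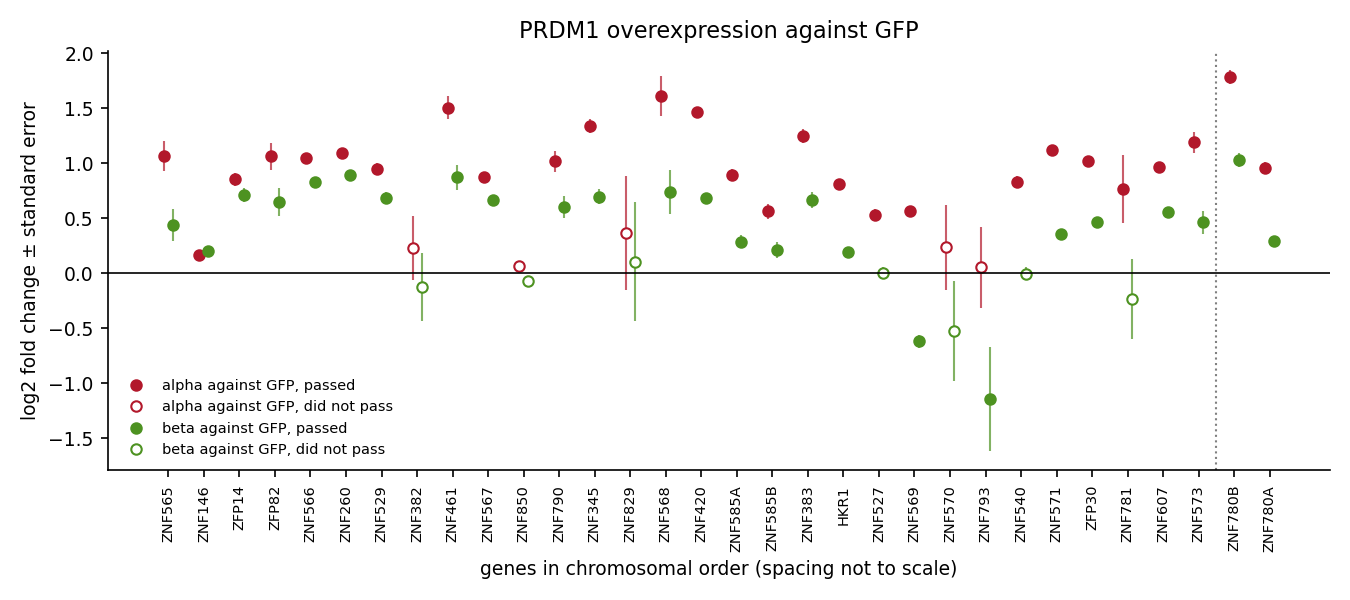
Log2 fold change against GFP of the 32 genes in chromosomal order for alpha (red) and beta (green), with standard errors; filled points passed, open points did not, and the dotted line marks the distant pair ZNF780B and ZNF780A. The red points lie at or above 0, up to 1.79 at ZNF780B, and the green points of ZNF569 (-0.62) and ZNF793 (-1.14) lie below it.

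Among the genes that passed, the forms of PRDM1 differed most in ZNF569. Its libraries had 91.2 and 85.5 CPM with alpha and 38.4 and 39.3 CPM with beta, against 56.3 and 63.6 CPM with GFP. It thus rose with alpha (log2 fold change 0.57 ± 0.05) and fell with beta (-0.62 ± 0.06). Set directly against each other, alpha was 2.27-fold above beta (1.19 ± 0.06). ZNF540 had 71.3 and 71.6 CPM with alpha and 40.1 and 39.9 CPM with beta, against 40.4 and 40.2 CPM with GFP. It rose with alpha (0.83 ± 0.05) and did not pass with beta, where its fitted level was 0.998 times that with GFP. ZNF527 showed a like picture, rising with alpha (0.53 ± 0.05) and not passing with beta, where it had 44.2 and 45.2 CPM, against 44.9 and 45.1 CPM with GFP. ZNF571 had 138 and 141 CPM with alpha and 77.0 and 87.0 CPM with beta, against 65.9 and 63.5 CPM with GFP (1.12 ± 0.04 with alpha and 0.36 ± 0.05 with beta).

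In all, 25 of the 32 genes were higher with alpha than with beta, 13 of them by at least 1.5-fold, and none was lower. Of all genes tested 3.45% were higher with alpha than with beta, 0.964% by at least 1.5-fold, and 2.79% were lower. The median log2 difference of the 32 genes was 0.59, and that over all genes tested -0.0014. The 13 genes were ZNF569, ZNF568, ZNF540, ZNF420, ZNF571, ZNF780B, ZNF573, ZNF780A, ZNF345, ZNF461, ZNF565, HKR1 and ZNF585A, with log2 differences of 0.61 to 1.19 and an edgeR adjusted p of 0.000699 or less. The call of ZNF565 was lost without beta library 2 (0.55, 0.0594). Among the smaller differences, the call of ZNF850 was lost in 5 alternative settings and that of ZFP82 in 4. The 7 that did not pass were ZFP14, ZNF146, ZNF382, ZNF829, ZNF570, ZNF793 and ZNF781. PRDM1 itself was at 487 and 480.1 CPM with alpha and 1175 and 1176 CPM with beta, so the form that went with the higher RNA of the cluster was the one with less PRDM1 mRNA. Form and amount of PRDM1 cannot be told apart here.

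The genes that did not pass with alpha were ZNF382, ZNF850, ZNF829, ZNF570 and ZNF793. With beta these were ZNF382, ZNF850, ZNF829, ZNF570, ZNF527, ZNF540 and ZNF781. All but ZNF850, ZNF527 and ZNF540 were under 2 CPM in every library. ZNF793 had 0.594 and 1.04 CPM with alpha and 0.420 and 0.290 CPM with beta, against 0.708 and 0.836 CPM with GFP. Its fall with beta (-1.14 ± 0.48, edgeR adjusted p = 0.0379) was lost without either GFP or either beta library and by DESeq2's Wald test. ZNF781 had 1.40 and 1.29 CPM with alpha, against 0.826 and 0.763 CPM with GFP, and its rise (0.77 ± 0.31, edgeR adjusted p = 0.0412) was lost in 6 alternative settings, among them leaving out any of the 4 libraries compared (0.0878 to 0.199).

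ZNF850 and ZNF146 stood out among the well expressed genes for moving in part of the comparisons or barely at all. ZNF850 had 53.3 and 51.8 CPM in KO2 and 59.7 and 60.6 CPM in KO5, against 103 and 105 CPM in WT, and fell in both (-0.94 ± 0.04 in KO2 and -0.76 ± 0.04 in KO5). It had 112 and 112 CPM with alpha and 104 and 100.5 CPM with beta, against 110.4 and 105 CPM with GFP, and passed with neither (0.06 ± 0.04 with alpha and -0.07 ± 0.04 with beta). It was thus lower in both knockouts, and no change with either form against GFP was detected. Alpha was above beta by 0.13 ± 0.04 on the log2 scale, a call lost in 5 alternative settings. ZNF146, found overexpressed in colorectal tumours in the literature, had the highest counts of the 32 in WT. It had 292 and 293 CPM with alpha and 305 and 294 CPM with beta, against 257 and 265 CPM with GFP (0.17 ± 0.03 with alpha and 0.20 ± 0.03 with beta). In the knockouts it had 215 and 218 CPM in KO2 and 247 and 240.3 CPM in KO5, against 239 and 232 CPM in WT (-0.09 ± 0.03 in KO2 and 0.08 ± 0.03 in KO5). Its KO2 call was lost without WT library 1 (-0.064), without either KO2 library (-0.073 and -0.10) and by DESeq2's Wald test (-0.083, adjusted p 0.0764). Its KO5 call was lost without WT library 2 (0.053) and without KO5 library 1 (0.051). The rise in KO5 turned to -0.017 and no longer passed when the trend of fold change with GC content was removed.

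**Figure D4:**
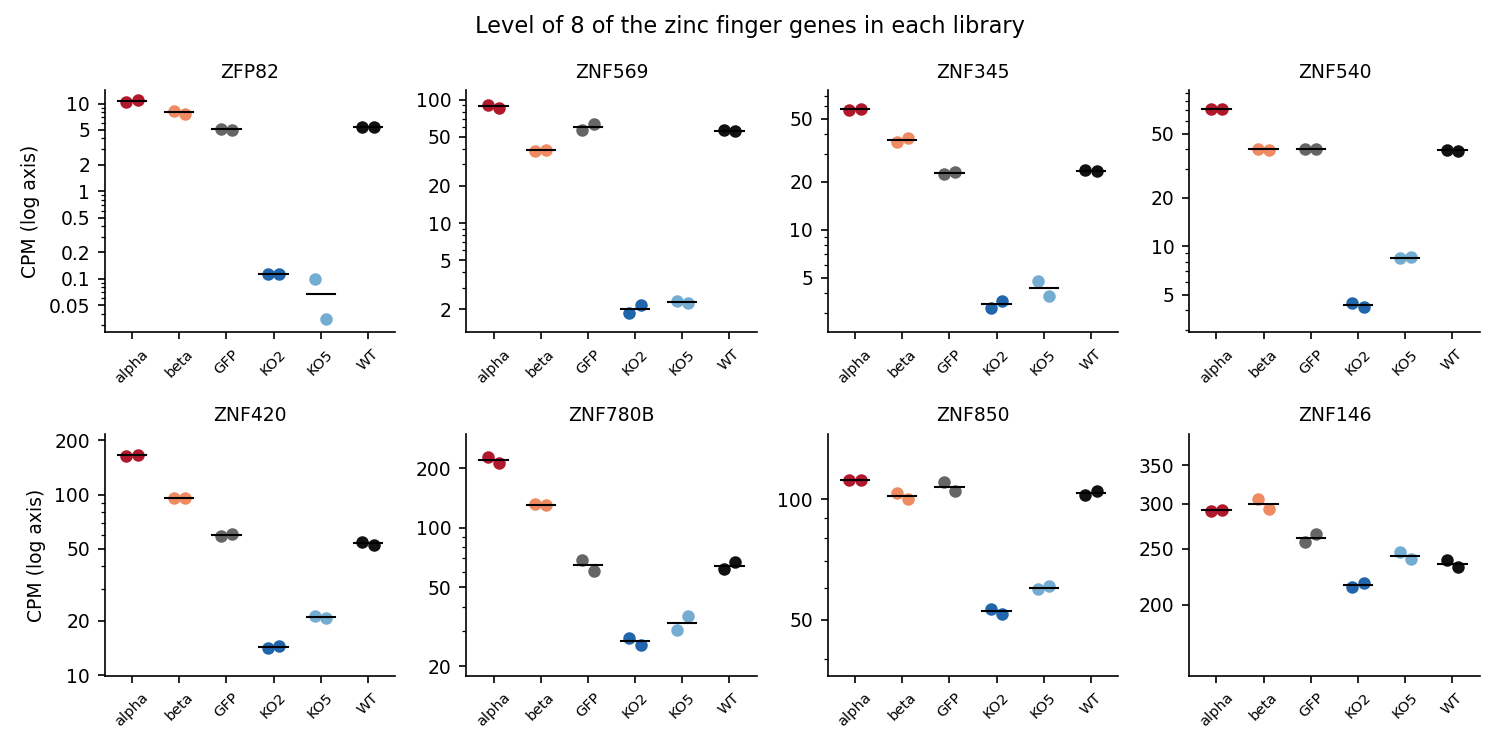
Level of 8 of the genes in each library, in CPM on a log axis, for the 6 groups; points are libraries and lines the means of 2 libraries. ZFP82, ZNF569, ZNF345, ZNF540 and ZNF420 are far lower in KO2 and KO5 than in WT, ZNF569 and ZNF540 do not rise with beta, ZNF850 is lower in the knockouts, and ZNF146 stays between 215 and 305 CPM.

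The knockout and overexpression comparisons share no library, so their calls can be set side by side. All 27 genes that rose with alpha fell in KO2, which is 100% of the rises and 90.0% of the 30 falls. Because 30 of the 32 genes fell in KO2, the separate counts nearly fix these shares, which therefore show no gene-by-gene match. Over all genes tested 657 rose with alpha and fell in KO2, 24.1% of the rises, 34.3% of the falls and 5.11% of the genes tested. With both changes at least 1.5-fold there were 96 such genes, 0.747% of those tested, and 22 of them belonged to the cluster. For alpha and KO5 the count was 23 of the 32 (7.97% of all genes tested), for beta and KO2 it was 23 (5.34%), and for beta and KO5 it was 20 (8.07%). These counts too are largely set by how many of the 32 passed in each comparison. Spearman's rho between the log2 fold changes over the 32 genes, which share libraries, depth and neighbouring positions, was -0.27 for alpha and KO2 and -0.39 for alpha and KO5. It was 0.052 for beta and KO2 and -0.13 for beta and KO5. ZFP82 and ZNF569 fell furthest in KO2 and rose by 1.06 ± 0.12 and 0.57 ± 0.05 with alpha, while ZNF780B rose most with alpha and had a log2 fold change of -1.24 ± 0.07 in KO2.

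**Figure D5:**
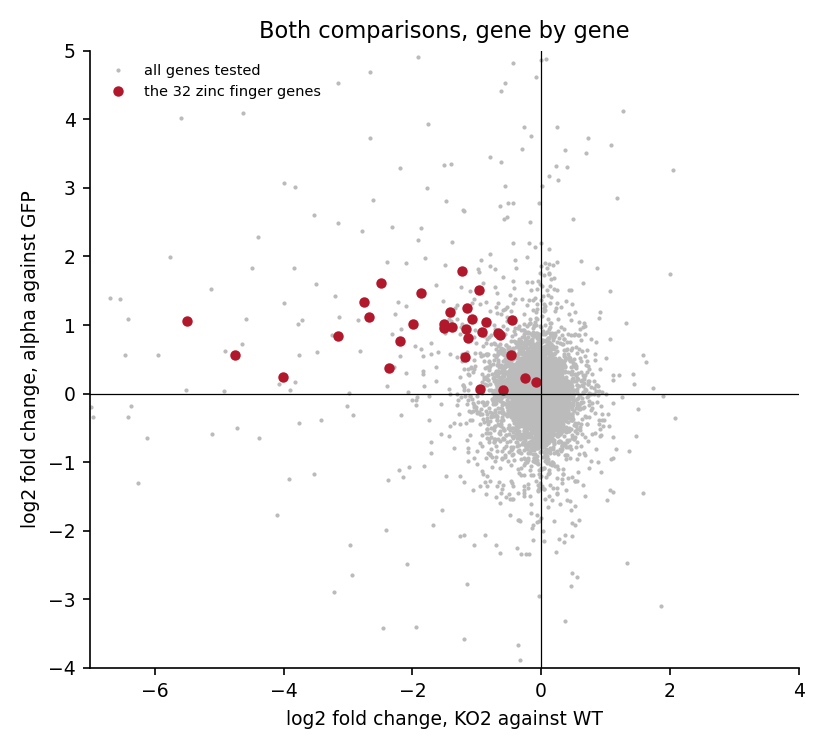
Log2 fold change of KO2 against WT on the x axis and of alpha against GFP on the y axis for the 12858 genes tested (grey, of which 29 lie outside the axes) and the 32 zinc finger genes (red). The red points lie in or next to the upper left part of the plot, where 27 of the 32 passed in both comparisons.

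Near copies and overlapping neighbours moved to different degrees. ZNF585A had 16.7 and 15.9 CPM in KO2 and 22.4 and 22.0 CPM in KO5, against 32.4 and 31.1 CPM in WT (-0.92 ± 0.06 in KO2 and -0.48 ± 0.06 in KO5). Its copy ZNF585B had 13.8 and 13.3 CPM in KO2 and 18.3 and 18.3 CPM in KO5, against 18.6 and 19.9 CPM in WT (-0.47 ± 0.07 in KO2 and -0.05 ± 0.07 in KO5). ZNF585B passed in KO2 and not in KO5. With alpha ZNF585A had 65.0 and 64.7 CPM, against 35.4 and 34.7 CPM with GFP (0.90 ± 0.05), and ZNF585B had 29.4 and 30.1 CPM, against 19.4 and 21.0 CPM with GFP (0.56 ± 0.07). ZNF780B and ZNF780A had 27.9 and 25.5 CPM and 20.6 and 20.8 CPM in KO2, against 61.9 and 67.0 CPM and 58.5 and 62.4 CPM in WT. ZNF570 had 0.806 and 0.595 CPM with alpha and 0.630 and 0.248 CPM with beta, against 0.512 and 0.691 CPM with GFP, and did not pass with either form. Whether the authors' counting used the strand is not given in the sources used here, so reads of overlapping genes may be shared. Of the 32 genes 20 overlap no other gene of the files by RefSeq models of GRCh38.p14, while the counts were made on hg19. Among these 20 fell in KO2, 18 fell in KO5, 19 rose with alpha and 17 rose with beta. Of the other 12, 10 fell in KO2, and 8 fell and 1 rose in KO5. With alpha 8 of the 12 rose, and with beta 6 rose and 2 fell. The median log2 fold change of the 20 was -1.17 in KO2 and 0.60 with beta. For the 12 it was -2.18 in KO2 and 0.15 with beta. Whether shared reads bear on this was not tested.

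In 5 places the RefSeq starts of 2 genes of the cluster lie within 300 bases of each other on opposite strands, 22 to 97 bases apart in GRCh38.p14. ZNF790 and ZNF345 both fell (-1.99 ± 0.13 and -2.76 ± 0.10 in KO2) and both rose with alpha (1.02 ± 0.10 and 1.34 ± 0.06). ZNF461 and ZNF567 likewise both fell (-0.96 ± 0.11 and -0.66 ± 0.05) and both rose (1.5 ± 0.10 and 0.88 ± 0.05). In the pair of ZNF565 and ZNF146 the first rose by 1.07 ± 0.13 and the second by 0.17 ± 0.03 with alpha. In the pair of ZNF529 and ZNF382 ZNF529 passed in both comparisons (-1.16 ± 0.06 in KO2 and 0.95 ± 0.05 with alpha) and ZNF382, near 1 CPM, in neither (-0.25 ± 0.27 and 0.23 ± 0.29). ZNF829 and ZNF568 both fell in KO2, and with alpha ZNF568 passed and ZNF829, with at most 9 reads in each alpha and GFP library, did not. Shared starts thus went with like changes in some pairs and not in others, and the difference within a pair was not tested.

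Along the chromosome the changes were not even, a division made after the values were seen. The 11 genes from ZNF565 to ZNF850 had a median log2 fold change of -0.86 in KO2 and -0.59 in KO5, the 19 from ZNF790 to ZNF573 one of -1.86 in KO2 and -1.24 in KO5, and the distant pair ZNF780B and ZNF780A one of -1.37 in KO2 and -0.97 in KO5. With alpha the medians were 0.95, 0.90 and 1.37 for the same 3 stretches, and with beta 0.67, 0.29 and 0.66. The difference of alpha from beta was a median of 0.22 in the first stretch, 0.64 in the second and 0.71 in the distant pair.

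Genes that stand between or next to these genes but carry no zinc finger symbol leaned higher with alpha and lower in KO5, and went in both directions in KO2. Of 102 such genes between the outermost members or next to the cluster's ends, 59 were tested, of which 24 were higher and 6 lower with alpha, 11 higher and 15 lower in KO2, and 4 higher and 34 lower in KO5. The genes higher with alpha were 40.7% of the 59, where 21.2% of all genes tested were higher. The lower ones were 25.4% in KO2 and 57.6% in KO5, where 14.9% and 25.9% of all genes were lower. The GFP control of alpha itself differed from WT here, with 0 of the 59 higher and 15 lower. These 15 were 25.4% of the 59, where 10.2% of all genes were lower. The median log2 fold change of the 59 was 0.11 for alpha against GFP and -0.096 for GFP against WT. Split by place, again after the values were seen, the 3 tested genes inside the stretch from ZNF565 to ZNF573 were the RNAs LINC00665, LINC01534 and LOC728485, and all 3 rose with alpha and beta and fell in KO2 and KO5. LINC00665 had 3 reads in KO2 and 0 in KO5, against 138 in WT, at least 29.2-fold lower in KO5 taking 3 counts over the group as the floor. LOC728485 averaged 6.95 ± 0.54 CPM in KO2 and 10.5 ± 0.69 CPM in KO5, against 50.8 ± 2.70 CPM in WT (SD, n = 2 each). The 35 tested genes in the gap between ZNF573 and ZNF780A had a median log2 fold change of -0.0016 in KO2, 8 of them higher and 5 lower, and of 0.059 with alpha, 12 higher and 4 lower. In KO5 their median was -0.074, with 3 higher and 16 lower. The 21 tested genes beyond the outermost members had a median of -0.27 in KO5, 1 of them higher and 15 lower. In KO2 their median was -0.054, with 3 higher and 7 lower, and with alpha 0.11, with 9 higher and 2 lower.

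The other zinc finger genes of chromosome 19 leaned the same way as the cluster in KO2, in alpha against beta and in KO5 against KO2. Against GFP with either form and in KO5 against WT they went in both directions. Of their changes by at least 1.5-fold, most with alpha and in KO5 against WT went the cluster's way. The list was made by the start of the symbol, so it takes in antisense RNAs of the cluster such as ZNF529-AS1. Of 181 tested, 4 were higher and 58 lower in KO2, the lower ones 32% of the list where 14.9% of all genes tested were lower, and 22 were lower and 0 higher by at least 1.5-fold. Between the forms 34 were higher and 1 lower with alpha than with beta, the higher ones 18.8% of the list where 3.45% of all genes were higher. Against GFP 45 were higher and 25 lower with alpha, 18 and 2 of them by at least 1.5-fold, and 26 were higher and 32 lower with beta. In KO5 45 were higher and 44 lower than in WT, 5 and 15 of them by at least 1.5-fold, where 4.09% of all genes were lower by at least 1.5-fold. Their median log2 fold change was 0.051 with alpha and -0.084 in KO2. One of them, ZNF546, lies within the span of the cluster. It had 44.9 and 45.1 CPM with alpha, against 12.9 and 12.1 CPM with GFP. In KO2 it had 6.60 and 6.49 CPM, against 11.9 and 11.5 CPM in WT. Of 266 zinc finger genes tested on other chromosomes, 41 were higher and 45 lower with alpha, and 20 higher and 48 lower in KO2. Of the 26 tested genes of the KRAB corepressor and heterochromatin machinery, 5 were higher and 6 lower with alpha. In KO2 6 were higher and 7 lower. None changed by 1.5-fold or more with alpha, with beta, in KO2 or in KO5. In KO5 against KO2, 9 of the 26 were higher and 9 lower, 34.6% each, where 26.9% of all genes were higher and 28.1% lower. In that comparison 2 of the 26 were higher by at least 1.5-fold, as 4.88% of all genes were. TRIM28, the corepressor of KRAB domains, had log2 fold changes of 0.07 ± 0.03 with alpha and -0.05 ± 0.03 in KO2, and passed in neither. SETDB1 had -0.05 ± 0.07 with alpha and -0.08 ± 0.05 in KO2, and passed in neither.

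The control derivative differed little from wild type in these genes. In GFP against WT 9 of the 32 genes were higher and none lower, where 8.81% of all genes tested were higher and 10.2% lower, and none was called at 1.5-fold or more, as 0.109% of all genes were. The 9 were ZFP14, ZNF260, ZNF567, ZNF420, ZNF585A, ZNF571, ZFP30, ZNF146 and ZNF780A, with log2 fold changes of 0.13 to 0.20. With the trend of fold change with GC content removed, 1 of the 9 still passed. The median of the 32 genes was 0.10, against -0.0031 over all genes tested.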

How the data were processed

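Polyadenylated RNA of 12 RKO libraries, 2 in each of 6 groups taken from the labels, was prepared with a stranded kit, per the labels. The authors deposited whole-number read counts per gene symbol for each library, with no normalization; the build was hg19 and the tools named are TopHat, Bowtie2 and Cufflinks, per the submitters' processing notes, and the counter and its use of strand are not given in the sources used here. The 26366 entries of each file include 2 that name no gene, reads without a gene (9.13% to 10.8%) and ambiguous reads (1.66% to 1.75%), which were left out. The authors' deposited comparison tables were not used.

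The counts went into edgeR 4.0.16 under R 4.3.3. filterByExpr left 12858 genes, among them all 32 cluster genes, and libraries were scaled by TMM (factors 0.9825 to 1.0130). One robust quasi-likelihood fit (glmQLFit) with 6 group means took in the 12 libraries together, and glmQLFTest gave 7 comparisons, with Benjamini-Hochberg adjustment over all genes at 0.05. CPM are counts scaled to a fixed total of gene counts, and standard errors of log2 fold changes come from the fitted dispersions. The biological coefficient of variation was 2.18%. The fit was run on simulated counts with known changes. These had the same spread for every gene, so the run checks the code and not the error rate in these data. Libraries of a group differed by more than sampling noise (chi-square per degree of freedom 1.68 to 2.77). Gene order and promoters come from RefSeq, build GRCh38.p14, with no coordinate converted.

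The cluster genes, other lists and the naming rule were chosen with earlier results of these data known. The rule gave values in every library for up to 8 genes with the largest change past 1.5-fold in each comparison, the 2 with most and the 2 with fewest counts, and the near copies; other genes are given as ranges and counts. The alternatives tried were the Wald test of DESeq2 1.42.0, DESeq2 size factors in edgeR, a fit without the filter on low counts, a fit of the compared groups alone, a replicate block, removal of the trend with GC content, both of these together, and each library left out.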

Additional observations from a re-analysis of the deposited data

Results flagged for a closer look

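The log2 fold changes of alpha and beta, both against GFP, differed by a direct test of alpha against beta and by at least 1.5-fold for 13 genes of the cluster. The difference, alpha minus beta, was 1.19 for ZNF569, 0.87 for ZNF568, 0.84 for ZNF540, 0.79 for ZNF420, 0.76 for ZNF571, 0.755 for ZNF780B and 0.72 for ZNF573. It was 0.67 for ZNF780A, 0.64 for ZNF345, 0.63 for ZNF461, 0.63 for ZNF565, 0.62 for HKR1 and 0.61 for ZNF585A. ZNF569 was the gene whose 2 changes both passed and had opposite signs.

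The log2 fold changes of KO5 and KO2, both against WT, differed by a direct test of KO5 against KO2 and by at least 1.5-fold for 3 genes. The difference, KO5 minus KO2, was 2.71 for ZNF570, 1.47 for ZNF781 and 0.97 for ZNF540. The first rests on 11 reads in KO5 and 2 in KO2.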

How the results depend on the processing

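The number of cluster genes higher with alpha was 27 and the number lower in KO2 was 30 (27 to 29 with a library left out, and 26 for alpha), and no alternative moved these or the other large counts by over 1.5 times. Small counts did move. Genes lower with beta were 1 in place of 2 with the DESeq2 Wald test and with each library left out (1 to 1), where ZNF793 was lost. Genes higher in KO5 than in WT were 0 in place of 1 (ZNF146) with no low-count filter, with the GC trend removed, and with the GC trend removed and the replicate block, and 0 to 1 with a library left out. ZNF146 then had -0.0173 with the GC trend removed and -0.0178 with the GC trend removed and the replicate block. Genes lower in KO5 than in KO2 were 1 in place of 2 with DESeq2 size factors, the DESeq2 Wald test, only the compared groups, the GC trend removed, and that with the replicate block, and 0 to 1 with a library left out. Genes higher with GFP than in WT were 1 in place of 9 with the GC trend removed, with or without the replicate block, and 4 to 8 with a library left out. The causes of these moves were not tested.

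The replicate numbers did not pair the libraries: deviations of same-numbered libraries correlated at -0.065 to 0.056 over 15 pairs of groups, none over 0.1. With the replicate block 27 genes were higher with alpha, 23 higher and 2 lower with beta, 30 lower in KO2, 1 higher and 26 lower in KO5, and 8 higher with GFP. Of 1832 values of single genes that had passed, 1719 kept direction and call, 111 kept the direction but no longer passed, and 2 changed sign. Directions of genes that had not passed were not read. Where a group kept 1 library, that library was assumed to vary like the other groups. Genes under 2 CPM in every library, such as ZNF829, ZNF570, ZNF793 and ZNF781, rest on few reads, which limits what their values can show.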
